A study of Mus musculus and Homo sapiens with 28 samples.

Results

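Solute carriers are the membrane proteins that move nutrients, ions, metals and metabolites across the plasma membrane and the membranes of organelles, and their genes carry symbols of the form Slc, a family number, a letter and a member number. The genes described were the protein-coding mouse genes with such a symbol, without Slc16a4, whose deposited value averaged at least 5 (log2) over the 24 mouse libraries, and the human genes of the same form with a mean of at least 5 over the 4 human libraries. This rule kept 209 of 361 mouse symbols and 191 of 366 human symbols, in tables of 46078 and 56269 rows. Of the mouse symbols 127 lay below the mean and 24 were 0 in all libraries. Of the human symbols 136 lay below it and 39 had no count in any library. The members were chosen by their mean level, so that they were expressed is no finding. Just outside the mouse limit were Slc25a47 (4.84), Slc24a3 (4.89) and Slc27a6 (4.99), and just inside it Slc39a4 (5.00), Slc47a1 (5.11) and Slc19a3 (5.12). In the human table SLC7A2 (4.93), SLC16A5 (4.96) and SLC3A1 (4.96) fell outside, and SLC4A8 (5.01), SLC9A3 (5.01) and SLC30A4 (5.09) inside.

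Carriers work as uniporters, as symporters coupled to sodium or protons, or as exchangers that trade solutes. In tumour cells Slc2a1 (GLUT1) is the best known glucose importer, the monocarboxylate carriers Slc16a1 and Slc16a3 move lactate with protons, and Slc7a11 (xCT) imports cystine, the precursor of glutathione, in exchange for glutamate. Slc3a2 is a glycoprotein with no carrier activity of its own that brings its light chains, among them Slc7a5 (LAT1, leucine and other large neutral amino acids), Slc7a6 and Slc7a7 (cationic and neutral amino acids), Slc7a8 and Slc7a11, to the cell surface.

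The mouse libraries came from Renca, a murine renal carcinoma line, grown under the skin in Matrigel. They were labelled WT VE822 (n = 6), WT untreated (n = 7), SETD2 KD VE822 (n = 5) and SETD2 KD untreated (n = 6). VE822 inhibits ATR, a kinase of the replication stress response, and was given at 60 mg/kg by gavage on 5 days per week. SETD2 is a histone methyltransferase, and how it was knocked down, in how many clones, and which strain and age of mouse carried the tumours, is not stated in the material used here. The human libraries came from 786-O, an established line of clear cell renal carcinoma, exposed to a CHK1 inhibitor at 25 nM (CHK1 acts downstream of ATR) for 48 h (n = 2) or untreated (n = 2), in separate experiments. The labels and the design text name the compound LY2606368 and the treatment protocol LY2603618, so it is called the CHK1 inhibitor here. The sources do not say that each library is a separate animal or culture, so a p-value reflects the spread among libraries alone, which may be technical.

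Mouse values were regularised log2 values (rlog), which keep no depth, so no counting interval can be given. The human libraries held 21447859 and 20834400 recovered counts with the inhibitor, and 23956007 and 23492424 without it. Setd2 did not separate the genotype labels without treatment, and in both labels its mean was lower under VE822. It averaged 10.03 ± 0.29 in libraries labelled WT VE822 (SD, n = 6) and 10.83 ± 0.07 in WT untreated (n = 7). In SETD2 KD VE822 it averaged 9.72 ± 0.21 (n = 5) and in SETD2 KD untreated 10.81 ± 0.07 (n = 6). All genotype comparisons are therefore between libraries as labelled. The tissue is labelled kidney. Of 21 nephron transporters 7 had a mean rlog of at least 3, among them Slc6a19 (5.91) and Slc13a3 (5.39). Of 9 kidney tubule markers 5 reached that level: Cdh16 (11.86), Aqp1 (10.59), Aqp2 (7.86), Lrp2 (6.64) and Cubn (5.41). Other nephron genes lay low. The phosphate carrier Slc34a3 and the organic anion carriers Slc22a6 and Slc22a8 were listed at 0 in all libraries, and Slc12a1, the sodium-potassium-chloride carrier of the thick ascending limb, averaged 1.96.

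Some non-tumour markers moved with treatment in the mouse. Of all genes tested 17.2% rose and 17.5% fell in WT VE822, and 10.6% rose and 11.6% fell in SETD2 KD VE822. All of 8 T cell markers rose in the SETD2 KD libraries given VE822 and 7 of 8 in WT; their list mean ran from 5.33 to 6.61 in WT VE822, 4.94 to 5.58 in WT untreated, 5.80 to 6.60 in SETD2 KD VE822 and 5.00 to 5.34 in SETD2 KD untreated. Of 6 fibroblast markers 5 rose in WT and 0 passed in SETD2 KD; the mean ran from 9.91 to 12.89 in WT VE822, 8.45 to 10.80 in WT untreated, 9.34 to 10.79 in SETD2 KD VE822 and 8.68 to 10.43 in SETD2 KD untreated. Skeletal muscle markers (2 of 9 tested rose in WT) ran from 4.07 to 8.51 in WT VE822, against 4.04 to 6.05 in WT untreated. Of 8 adipocyte markers 1 rose in each genotype label, and 1 fell in WT, and of 3 mast cell markers tested 2 rose in each. None of 5 keratinocyte markers reached a mean of 3. Of 6 endothelial and 5 neutrophil markers tested, 0 passed in either label. In bulk tumour RNA, fewer cells of a type and less RNA per cell cannot be told apart. Among 6 markers of carcinoma epithelium 5 fell and 1, Epcam, rose in each genotype label.

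A single library stood apart. In SETD2 KD VE822 replicate 4, the 36 members that were higher in WT VE822 had a median shift of -0.05 from the SETD2 KD untreated mean, with 15 of 36 above it, against 0.45 to 0.53 with 35 or 36 above it in the other 4 libraries of that group. For the 57 members lower in WT VE822 the median shift was -0.17 there, against -0.21 to -0.31 in the others. The same library held the lowest glycolysis mean of its group (13.38) and its highest endothelial mean (9.46). For Slc2a3, Slc2a1, Slc6a13, Slc6a12, Slc4a1, Slc22a4 and Slc40a1 the SETD2 KD difference is also given without it.

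Promoter sequences are shown for the heavy subunit Slc3a2, which fell in both tumour comparisons, and for the cystine and glucose carriers Slc7a11 and Slc2a1, which were not called in either; those of Slc7a6 and Slc6a13 are not shown. They come from RefSeq (GRCm38.p6), running from 250 bases before to 50 after a transcription start. They are printed 5′ to 3′ on the strand of the gene, with capitals marking matches on either strand to TGATGNAA (bound by ATF4, the factor of the amino acid stress response), TGACNNNGC (the core of the antioxidant response element) or ACGTG (the core of the hypoxia response element, which the longer motifs can overlap). Slc7a11 lies at chr3:50443564-50443863 on the minus strand, Slc3a2 at chr19:8713848-8714147 on the minus strand and Slc2a1 at chr4:119108495-119108794 on the plus strand.
Slc7a11: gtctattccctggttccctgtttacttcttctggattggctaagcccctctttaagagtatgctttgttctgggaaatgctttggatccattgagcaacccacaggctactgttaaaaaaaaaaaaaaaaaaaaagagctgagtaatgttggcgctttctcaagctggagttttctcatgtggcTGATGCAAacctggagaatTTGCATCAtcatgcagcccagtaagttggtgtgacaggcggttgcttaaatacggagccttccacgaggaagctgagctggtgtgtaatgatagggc
Slc3a2: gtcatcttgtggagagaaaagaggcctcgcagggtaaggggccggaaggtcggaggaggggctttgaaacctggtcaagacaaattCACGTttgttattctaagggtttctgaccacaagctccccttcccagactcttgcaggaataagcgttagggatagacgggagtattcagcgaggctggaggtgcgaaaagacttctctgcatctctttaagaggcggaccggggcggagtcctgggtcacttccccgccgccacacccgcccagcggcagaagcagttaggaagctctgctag
Slc2a1: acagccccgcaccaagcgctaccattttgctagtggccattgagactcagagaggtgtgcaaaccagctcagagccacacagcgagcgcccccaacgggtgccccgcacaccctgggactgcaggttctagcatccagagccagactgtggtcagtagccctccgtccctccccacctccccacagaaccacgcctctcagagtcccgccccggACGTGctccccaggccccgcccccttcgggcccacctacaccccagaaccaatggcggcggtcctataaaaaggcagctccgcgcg
The Slc7a11 window held 2 ATF4 matches in opposite orientation, at bases 185 and 204 of the window counted from its 5′ end, and no other match. The Slc3a2 and Slc2a1 windows each held 1 hypoxia core, at bases 87 and 215. Windows were in the table for 156 of the 209 members (216 windows). The ATF4 letters occurred in 3.7% of the members' windows and 3.97% of all 32851 windows, the antioxidant core in 19.4% and 12.4%, and the hypoxia core in 26.9% and 19.6%. A match of letters is a description only.

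The first comparison asks how the members changed when tumours labelled WT were given the ATR inhibitor. Of 209 members 93 passed the threshold (limma, Benjamini-Hochberg adjusted p under 0.05 over all genes tested), 36 higher and 57 lower, or 44.5%. Of all 15916 genes tested 34.7% passed (17.2% higher, 17.5% lower), and of the 13076 with a mean of at least 5, the level the rule asks for, 36.7% (16.2% higher, 20.5% lower). The median log2 difference was -0.01 over the members and 0.01 over all genes. Of the 93, 8 (8.6%) reached 1 on the log2 scale, as did 5.1% of all genes called. With the median difference of each chromosome taken out, 86 passed and the split became 45 higher and 41 lower. Without the 4 libraries high in muscle markers 66 passed (24 higher, 42 lower), and without the 8 high in adipocyte markers 72 did (37 higher, 35 lower); both exclusions were chosen after seeing the data, and the part of these cells in the results was not tested further.

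The same comparison in tumours labelled SETD2 KD gave 63 of 209 members, 24 higher and 39 lower, or 30.1%, where 22.2% of all genes (10.6% higher, 11.6% lower) and 23.4% of genes with a mean of at least 5 passed (9.81% higher, 13.5% lower). Without replicate 4 of SETD2 KD VE822, 85 passed (39 higher, 46 lower), and no share of all genes is given for that setting. The differences of the 2 comparisons share no library, but the spread of each gene was estimated over all 24 mouse libraries. The calls are therefore not independent. Without replicate 4 of SETD2 KD VE822, 101 members passed in WT instead of 93. The overlap with each comparison fitted on its own libraries is not given. Of the members called, 49 were called in both, all in the same direction (18 higher, 31 lower), which is 52.7% of those called in WT and 77.8% of those called in SETD2 KD. With replicate 4 left out of the SETD2 KD calls alone the overlap was 68, or 73.1% and 80%. No share of all genes is given for that setting. With replicate 4 kept, 2258 of all 13076 genes with a mean of at least 5 were called in both, 100% in the same direction. These were 47% of those called in WT and 73.9% of those called in SETD2 KD, to be read beside 52.7% and 77.8%. Of the 93 members called in WT, 91 had the same sign in SETD2 KD, a count not given for all genes.

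**Figure D1:**
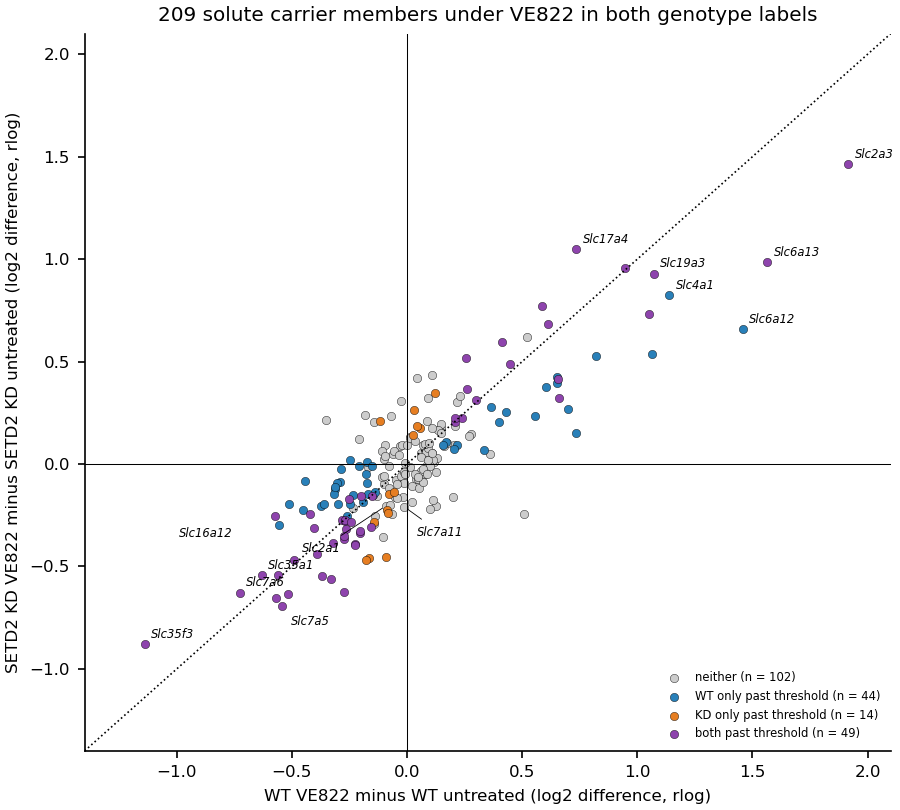
Log2 difference (rlog) of each of the 209 mouse members under VE822, in tumours labelled WT (horizontal) and SETD2 KD (vertical). Colours mark the 49 members past the threshold in both, the 44 in WT alone, the 14 in SETD2 KD alone and the 102 in neither; the dotted line marks equal differences, and Slc2a3 lies highest on both axes.

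Of 34 measured amino acid carriers, 6 were higher and 13 lower in WT VE822, and 3 higher and 8 lower in SETD2 KD VE822. The classes and gene lists here and below were chosen with earlier results of these data known and were not tested against other genes. Their counts are to be read beside the shares of all genes given for each comparison. Genes with a mean of at least 5 also included more lower than higher calls. The heavy subunit and 2 of its light chains fell together in both genotype labels. Slc7a6 (chromosome 8, 106168857 to 106198706, plus strand) ran from 10.62 to 10.79 in WT VE822 (median 10.73), against 11.35 to 11.62 in WT untreated (median 11.42). In SETD2 KD VE822 its values were 10.91, 10.77, 10.65, 11.11 and 10.77, against 11.32 to 11.55 in SETD2 KD untreated (median 11.51). Treated and untreated libraries did not overlap in either genotype label. The difference was -0.73 ± 0.06 (log2, SE, limma adjusted p 6.26e-09) in WT and -0.63 ± 0.06 (3.50e-07) in SETD2 KD.

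Slc7a5 (chromosome 8, 121881150 to 121907694, minus strand), which carries leucine inward, ran from 13.56 to 14.04 in WT VE822 (median 13.81) and from 14.19 to 14.46 in WT untreated (median 14.35). Its values were 13.81, 13.57, 13.70, 13.60 and 13.60 in SETD2 KD VE822, against 14.19 to 14.45 in SETD2 KD untreated (median 14.42). All treated libraries lay below all untreated ones of their genotype label, with differences of -0.54 ± 0.07 in WT (limma adjusted p 4.82e-06) and -0.69 ± 0.08 in SETD2 KD (1.40e-06). Slc3a2 (chromosome 19, 8706882 to 8723369, minus strand) ran from 13.18 to 13.37 in WT VE822 (median 13.31) and from 13.62 to 13.78 in WT untreated (median 13.70). In SETD2 KD VE822 it had 13.38, 13.22, 13.21, 13.22 and 13.08, against 13.54 to 13.75 in SETD2 KD untreated (median 13.67). Again no treated library reached an untreated one, and the differences were -0.39 ± 0.05 (1.02e-06) and -0.44 ± 0.05 (1.54e-06).

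The other partners did not follow. Slc7a7 differed by -0.17 ± 0.08 in WT (limma adjusted p 0.0851) and -0.02 ± 0.08 in SETD2 KD (0.918), and its reads may be mixed with those of Oxa1l, which overlaps it on the opposite strand. Slc7a8 differed by 0.05 ± 0.10 (0.739) and -0.06 ± 0.11 (0.731). Slc7a11, the cystine carrier, ran from 8.88 to 9.66 in WT VE822 (median 9.35) and from 9.15 to 9.59 in WT untreated (median 9.37). It had 9.07, 9.06, 9.43, 9.27 and 9.28 in SETD2 KD VE822, against 9.23 to 9.56 in SETD2 KD untreated (median 9.44). The ranges overlapped in both labels, with differences of -0.01 ± 0.10 (limma adjusted p 0.931) and -0.21 ± 0.11 (0.169), which do not show that its level was equal. Within groups, the members whose residuals tracked Slc7a11 most closely were the cationic amino acid carrier Slc7a1 (Pearson r 0.77), the neutral amino acid carrier Slc1a4 (0.64) and the glutamine and alanine carrier Slc38a2 (0.64), over 24 libraries that each supply both values.

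Among the remaining amino acid members, the glutamine carrier Slc1a5 fell by 0.23 in WT (limma adjusted p 0.00302) and by 0.39 in SETD2 KD (7.52e-05). Slc38a2 fell by 0.40 (0.000253) and 0.31 (0.00757), the serine and alanine carrier Slc1a4 by 0.28 (0.00275) and 0.27 (0.00973), and the glycine carrier Slc6a9 by 0.26 (0.00573) and 0.32 (0.00453). Slc43a2, a carrier of large neutral amino acids, differed by -0.44 in WT (0.000167) and -0.08 in SETD2 KD (0.552), but the interaction was not past the threshold (0.36 ± 0.12, 0.438). The glutamine carrier Slc38a1 rose, by 0.26 (0.0140) and 0.37 (0.00389), as did the lysosomal histidine and peptide carrier Slc15a3, by 0.45 (0.00789) and 0.49 (0.0119).

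Of 12 genes of the amino acid stress response, 3 fell and 0 rose in WT VE822, and 4 fell and 0 rose in SETD2 KD VE822, with median differences of -0.03 and -0.14. Ddit3, the pro-apoptotic factor CHOP, fell by 0.42 and 0.32, Trib3, an inhibitor of ATF4, by 0.29 and 0.35, and Psat1, a serine synthesis enzyme, by 0.22 and 0.33. Of 14 genes of cystine use, glutathione and antioxidant defence, 8 fell in WT and 9 in SETD2 KD, with none higher, where 17.5% and 11.6% of all genes were lower. Nqo1, a quinone reductase, fell by 0.75 (limma adjusted p 3.82e-05) and 1.09 (2.29e-06), and the glutathione synthase gene Gss by 0.49 (6.77e-06) and 0.55 (1.01e-05). Slc7a11 did not pass beside them.

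In WT VE822 the largest rises among amino acid members belonged to a pair of neighbouring genes on chromosome 6. Slc6a13 (121300227 to 121337733, plus strand), which encodes the GABA carrier GAT2, ran from 7.31 to 8.15 in WT VE822 (median 7.88), against 5.81 to 6.69 in WT untreated (median 6.18). In SETD2 KD VE822 it had 7.91, 8.15, 7.83, 5.39 and 7.62, against 5.94 to 6.69 in SETD2 KD untreated (median 6.45). The WT groups did not overlap, whereas replicate 4 of SETD2 KD VE822 lay below every untreated library. The difference was 1.56 ± 0.29 in WT (limma adjusted p 0.000250) and 0.98 ± 0.32 in SETD2 KD (0.0281), or 1.48 ± 0.17 without replicate 4 (7.61e-07). The SETD2 KD call was lost in 8 alternative settings.

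Slc6a12 (121343076 to 121365775, plus strand), the betaine and GABA carrier BGT1, ran from 8.15 to 9.33 in WT VE822 (median 9.04) and from 6.65 to 8.14 in WT untreated (median 7.49). It had 9.87, 8.65, 8.95, 6.02 and 8.86 in SETD2 KD VE822, against 7.42 to 8.11 in SETD2 KD untreated (median 7.89). The lowest treated WT library only just cleared the highest untreated one, and 4 of the 5 SETD2 KD VE822 libraries lay above all untreated ones. The difference was 1.46 ± 0.38 in WT (limma adjusted p 0.00500) and 0.66 ± 0.42 in SETD2 KD (0.284), or 1.27 ± 0.26 without replicate 4 (0.000752). In WT it was 1.32 without the muscle-rich libraries (0.0819). The astrocyte-type glutamate carrier Slc1a2 was higher by 0.82 in WT (0.0406), a call lost in 12 alternative settings.

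**Figure D2:**
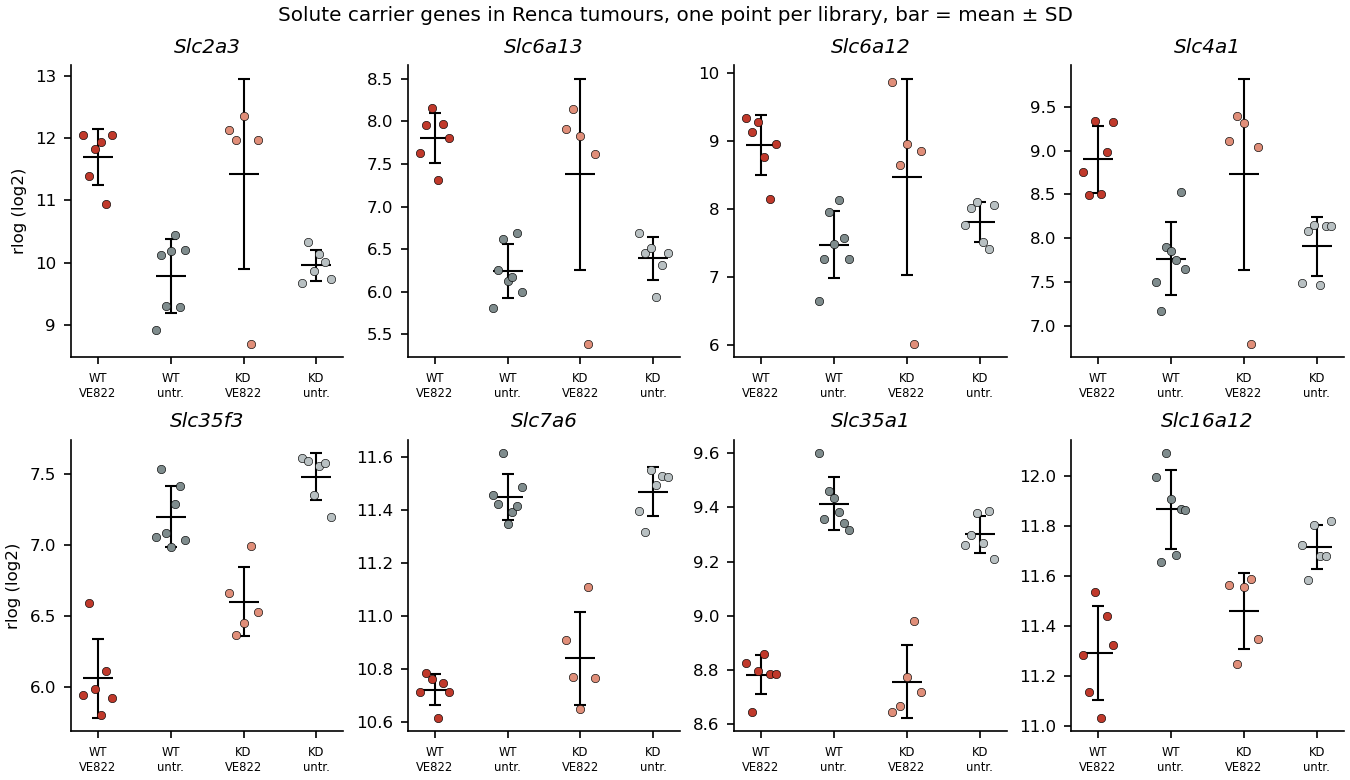
rlog values (log2, vertical axes) of the 4 mouse members with the largest rises (top) and the 4 with the largest falls (bottom) in WT VE822, 1 point per library, with mean ± SD in each of the 4 labelled groups. In the top row 1 SETD2 KD VE822 library, replicate 4, sits far below the other 4, at 8.70 for Slc2a3. In the bottom row the mean of each treated group lies below that of its untreated group. For Slc16a12 the treated and untreated SETD2 KD libraries meet.

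The classes go by family number, so the sugar class also holds the vitamin carrier Slc5a6. In this class 1 of 10 was higher and 5 were lower in WT VE822. In SETD2 KD VE822 1 was higher and 4 were lower. Slc2a3 (chromosome 6, 122727809 to 122801640, minus strand), the high-affinity glucose carrier GLUT3 of neurons and leukocytes, had the largest rise of all members in both labels. It ran from 10.94 to 12.06 in WT VE822 (median 11.89), against 8.93 to 10.44 in WT untreated (median 10.13). In SETD2 KD VE822 it had 12.14, 11.97, 12.35, 8.70 and 11.97, against 9.68 to 10.33 in SETD2 KD untreated (median 9.94). All treated libraries but replicate 4 of SETD2 KD VE822, the lowest of all 24, exceeded the untreated ones. The difference was 1.92 ± 0.41 in WT (limma adjusted p 0.000891) and 1.47 ± 0.44 in SETD2 KD (0.0195), or 2.15 ± 0.25 without replicate 4 (9.36e-07). The SETD2 KD call was lost in 5 alternative settings, among them leaving out any other library of SETD2 KD VE822.

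Slc2a1 (chromosome 4, 119108711 to 119137983, plus strand) ran from 12.11 to 13.18 in WT VE822 (median 12.92) and from 12.50 to 13.48 in WT untreated (median 12.95). It had 13.20, 12.81, 13.09, 11.59 and 12.88 in SETD2 KD VE822, against 12.57 to 13.34 in SETD2 KD untreated (median 12.90). The 4 groups overlapped throughout, and neighbouring group medians differed by less than the spread of any group. The differences were -0.09 ± 0.22 in WT (limma adjusted p 0.774) and -0.21 ± 0.24 in SETD2 KD (0.591), the second being 0.08 ± 0.19 without replicate 4.

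The variation of Slc2a1 within groups was shared with other carriers. Its residuals from the group means correlated most with those of Slc7a2, a cationic amino acid carrier (Pearson r 0.92), and of the lactate carriers Slc16a1 (0.89) and Slc16a3 (0.89) over 24 libraries, and at 0.86, 0.80 and 0.82 over the 23 libraries without replicate 4 of SETD2 KD VE822. The correlation with the mean of 14 glycolytic genes was 0.96, or 0.93 without that library. For Slc2a3 the same values were 0.88 and 0.80, but for Slc6a13 they were 0.44 and -0.36, and for Slc4a1 0.45 and -0.18, so for these the sign rested on that library. Of the 14 glycolytic genes 4 fell in WT VE822 and 1 in SETD2 KD VE822, and 0 rose in either; Pgam1, phosphoglycerate mutase, fell by 0.77 (limma adjusted p 0.000276) and 1.04 (5.55e-05).

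The other sugar members that moved were lower. Slc2a6 fell by 0.27 in WT (limma adjusted p 0.0103) and 0.63 in SETD2 KD (1.99e-05), where 8.77, 8.85, 8.75, 8.48 and 8.58 in SETD2 KD VE822 stood against 9.15 to 9.45 in SETD2 KD untreated (median 9.32). Those groups did not overlap, and the interaction did not pass (-0.35 ± 0.12, 0.447). Slc2a8 fell by 0.27 (0.00430) and 0.28 (0.00900), and Slc45a3 by 0.37 (0.0316) and 0.55 (0.00705). The inositol carrier Slc5a3 differed by -0.55 ± 0.10 in WT (0.000232) and -0.30 ± 0.11 in SETD2 KD (0.0586), but it lies within Mrps6 on the same strand, so its reads are uncertain.

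Carriers of lactate and other organic acids (11 measured) gave 1 higher and 2 lower in WT VE822, and 0 higher and 1 lower in SETD2 KD VE822. Slc16a12 (chromosome 19, 34668403 to 34747289, minus strand), a creatine carrier, ran from 11.03 to 11.54 in WT VE822 (median 11.30), against 11.66 to 12.09 in WT untreated (median 11.87). It had 11.56, 11.25, 11.56, 11.59 and 11.35 in SETD2 KD VE822, against 11.59 to 11.82 in SETD2 KD untreated (median 11.70). The WT groups were separate and the SETD2 KD groups met at 11.59. The difference was -0.57 ± 0.08 in WT (limma adjusted p 9.09e-06) and -0.26 ± 0.09 in SETD2 KD (0.0360), a call lost in 8 alternative settings. The dicarboxylate carrier Slc13a2 was higher by 0.65 in WT (0.00837) and by 0.43 in SETD2 KD without passing (0.136).

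Metal and haem carriers moved in both directions. Of 27 measured, 8 were higher and 8 lower in WT VE822, and 5 higher and 6 lower in SETD2 KD VE822. Slc30a4, a zinc carrier of vesicles, fell by 0.56 in WT (12.58 to 12.89 in WT VE822, against 13.26 to 13.42 in WT untreated, limma adjusted p 1.02e-07) and by 0.54 in SETD2 KD (1.04e-06). Slc48a1, the haem carrier HRG1, fell by 0.49 (1.63e-05) and 0.47 (0.000144). Slc30a1, the zinc exporter of the plasma membrane, rose by 0.66 in WT (9.43 to 9.93 in WT VE822, against 8.73 to 9.12 in WT untreated, 3.41e-06) and by 0.32 in SETD2 KD (0.0126). In these zinc carriers treated and untreated WT libraries did not overlap.

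Slc11a1, the macrophage phagosome metal carrier NRAMP1, rose by 0.41 in WT (limma adjusted p 0.00801) and 0.60 in SETD2 KD (0.00154), while of 7 macrophage markers tested 2 fell and 0 rose in each label. The zinc and iron importer Slc39a14 was higher by 0.56 in WT (9.65e-05) and 0.23 in SETD2 KD (0.110). The iron exporter Slc40a1 (ferroportin) had a called rise of 1.06 ± 0.40 in WT (0.0397), but it ran from 6.79 to 9.67 in WT VE822 (median 7.17), against 6.15 to 7.25 in WT untreated (median 6.57). The highest values, 9.67 and 8.66, came from 2 treated libraries, and the call was lost without the adipocyte-rich libraries (0.35, 0.349) and without the muscle-rich ones (0.79, 0.202). In SETD2 KD, which held none of the muscle-rich libraries, the difference was 0.53 (limma adjusted p 0.320 in the fit without those libraries). Without replicate 4 of SETD2 KD VE822 it was 0.14 ± 0.40 (0.841). The Slc40a1 residuals correlated at 0.81 with the endothelial marker mean, 1 of several marker lists, over 24 libraries. These include that replicate, which had the highest endothelial mean of its group (9.46), and the correlation without it is not given. The part of endothelial, muscle or fat cells was not tested.

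Mitochondrial carriers (39 measured) gave 4 higher and 9 lower in WT VE822, and 5 higher and 6 lower in SETD2 KD VE822. Slc25a30 (chromosome 14, 75760117 to 75787037, minus strand), a kidney mitochondrial carrier, ran from 9.68 to 9.94 in WT VE822 (median 9.82), against 9.99 to 10.53 in WT untreated (median 10.46). It had 10.00, 9.55, 9.82, 9.46 and 9.69 in SETD2 KD VE822, against 10.22 to 10.56 in SETD2 KD untreated (median 10.33). Neither pair of groups overlapped, and the differences were -0.57 ± 0.09 (limma adjusted p 2.89e-05) and -0.66 ± 0.09 (3.05e-05). The aspartate-glutamate carriers Slc25a12 and Slc25a13 fell by 0.15 and 0.21 in WT (0.00965 and 0.0147) and by 0.16 and 0.33 in SETD2 KD (0.0218 and 0.00122). Slc25a5, an ADP/ATP carrier whose processed pseudogenes can share its reads, rose by 0.24 (0.000110) and 0.22 (0.000967).

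Carriers of nucleosides, nucleotide sugars and sugar phosphates (30 measured) gave 5 higher and 9 lower in WT VE822, and 3 higher and 6 lower in SETD2 KD VE822. Slc35f3 (chromosome 8, 126298558 to 126395482, plus strand), a member of the SLC35 family, had the largest fall of all members in both labels. It ran from 5.81 to 6.60 in WT VE822 (median 5.97), against 6.99 to 7.54 in WT untreated (median 7.08). It had 6.67, 6.37, 6.46, 7.0 and 6.53 in SETD2 KD VE822, against 7.20 to 7.61 in SETD2 KD untreated (median 7.57). Neither pair overlapped, and the differences were -1.14 ± 0.12 (limma adjusted p 4.28e-07) and -0.88 ± 0.13 (5.68e-05).

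Slc35a1 (chromosome 4, 34663257 to 34687438, minus strand), which brings CMP-sialic acid into the Golgi, ran from 8.65 to 8.86 in WT VE822 (median 8.79), against 9.32 to 9.60 in WT untreated (median 9.38). It had 8.65, 8.67, 8.77, 8.98 and 8.72 in SETD2 KD VE822, against 9.21 to 9.38 in SETD2 KD untreated (median 9.28). The groups were separate, with differences of -0.63 ± 0.06 (limma adjusted p 2.80e-08) and -0.54 ± 0.06 (1.66e-06). Slc29a3, the lysosomal nucleoside carrier ENT3, rose instead. It ran from 10.59 to 10.73 in WT VE822 (median 10.63), against 9.92 to 10.19 in WT untreated (median 10.09), and had 10.70, 11.03, 10.96, 10.75 and 11.12 in SETD2 KD VE822, against 10.05 to 10.30 in SETD2 KD untreated (median 10.11). The groups were again separate, by 0.58 ± 0.06 (1.82e-07) and 0.77 ± 0.07 (1.88e-08). The glucose-6-phosphate carrier Slc37a1 rose by 0.61 (8.45e-05) and 0.68 (0.000137).

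Slc35g1 (chromosome 19, 38395980 to 38405610, plus strand), of the same family as Slc35a1, ran from 9.60 to 9.95 in WT VE822 (median 9.79), against 9.97 to 10.63 in WT untreated (median 10.29). It had 9.83, 9.49, 9.78, 9.40 and 9.59 in SETD2 KD VE822, against 10.04 to 10.38 in SETD2 KD untreated (median 10.27). No treated library reached an untreated one of its label, and the gene fell by 0.51 ± 0.09 (limma adjusted p 0.000159) and 0.64 ± 0.10 (7.98e-05).

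Vitamin, choline and fatty acid carriers (15 measured) gave 5 higher and 2 lower in WT VE822, and 4 higher and 3 lower in SETD2 KD VE822. The thiamine carrier Slc19a3 ran from 5.51 to 5.89 in WT VE822 (median 5.71) and from 4.49 to 4.79 in WT untreated (median 4.67), and had 5.38, 5.56, 5.84, 5.17 and 6.04 in SETD2 KD VE822, against 4.48 to 4.83 in SETD2 KD untreated (median 4.67). The riboflavin carrier Slc52a3 (chromosome 2, 151996511 to 152009258, plus strand) ran from 6.47 to 7.31 in WT VE822 (median 6.88) and from 5.76 to 6.19 in WT untreated (median 5.90), and had 6.89, 7.42, 7.04, 6.80 and 7.16 in SETD2 KD VE822, against 5.86 to 6.38 in SETD2 KD untreated (median 6.11). In both vitamin carriers every treated library exceeded every untreated one of its label. Slc19a3 rose by 1.07 ± 0.11 (limma adjusted p 1.34e-07) and 0.93 ± 0.12 (5.84e-06), and Slc52a3 by 0.95 ± 0.13 (1.01e-05) and 0.95 ± 0.14 (5.00e-05).

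The folate carrier Slc19a1 fell by 0.33 in WT (limma adjusted p 0.0191) and 0.56 in SETD2 KD (0.00119), with Col18a1 overlapping it on the opposite strand. The ascorbate carrier Slc23a2 fell by 0.32 (0.00563) and 0.39 (0.00428). Among organic cation, anion and bile acid carriers (10 measured), 2 were higher and 2 lower in WT VE822, and 1 was higher and 3 were lower in SETD2 KD VE822. The cation extruder Slc47a1 (MATE1) rose by 1.05 ± 0.19 (0.000196) and 0.73 ± 0.21 (0.0131), and the ergothioneine carrier Slc22a4 differed by -0.17 in WT (0.333) and -0.46 in SETD2 KD (0.0193), or -0.36 without replicate 4 (0.0549). The SETD2 KD call of Slc47a1 was lost in 2 alternative settings and that of Slc22a4 in 3.

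Of 6 phosphate and vesicular anion carriers, 1 was higher and 1 lower in each label. Slc17a4 (chromosome 13, 23895890 to 23915009, minus strand), an organic anion carrier, ran from 6.15 to 6.96 in WT VE822 (median 6.42) and from 5.42 to 6.13 in WT untreated (median 5.73). It had 6.82, 6.78, 6.92, 6.32 and 7.12 in SETD2 KD VE822, against 5.44 to 6.13 in SETD2 KD untreated (median 5.72). All treated libraries lay above the untreated ones, by 0.74 ± 0.14 in WT (limma adjusted p 0.000302) and 1.05 ± 0.15 in SETD2 KD (3.39e-05). The phosphate carrier Slc20a2 fell by 0.23 (0.0443) and 0.39 (0.00403), and the WT call was lost in 18 alternative settings; Smim19 overlaps it on the opposite strand.

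Carriers of sodium, potassium, chloride, bicarbonate, calcium and protons (27 measured) gave 3 higher and 6 lower in WT VE822, and 1 higher and 1 lower in SETD2 KD VE822. Slc4a1 (chromosome 11, 102348824 to 102366203, minus strand), the chloride-bicarbonate exchanger band 3 of red cells and renal intercalated cells, ran from 8.50 to 9.34 in WT VE822 (median 8.87), against 7.17 to 8.52 in WT untreated (median 7.75). It had 9.11, 9.40, 9.32, 6.79 and 9.04 in SETD2 KD VE822, against 7.47 to 8.15 in SETD2 KD untreated (median 8.11). In WT the highest untreated library just exceeded the lowest treated one, and in SETD2 KD replicate 4 lay below all untreated libraries and the other 4 above them. The difference was 1.14 ± 0.31 in WT (limma adjusted p 0.00585) and 0.82 ± 0.33 in SETD2 KD (0.0793), or 1.31 ± 0.21 without replicate 4 (5.91e-05). Of 5 red cell markers tested 0 passed in either label, and their mean ran from 4.82 to 6.48 in WT VE822 and from 4.71 to 6.5 in WT untreated (medians 5.81 and 5.73). In SETD2 KD it ran from 4.74 to 6.17 in VE822 libraries and from 4.43 to 4.99 in untreated ones (medians 5.5 and 4.76), with a median difference of 0.80 over the markers, against 0.12 in WT; the part of red cells was not tested.

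Of 14 listed carriers of other cell types, such as blood, immune, muscle and fat cells, 10 reached the level for testing. Below it were Slc7a10, Slc17a7, Slc18a2 and Slc24a1. In WT VE822 7 of the 10 rose and 0 fell, where 17.2% of all genes were higher. In SETD2 KD VE822 4 rose and 0 fell, where 10.6% of all genes were higher. The list was chosen with earlier results of these data known, so these counts only describe it and are no test. The medians were 0.39 and 0.38. The risers in WT included Slc2a3, Slc4a1, Slc11a1, Slc15a3 and Slc29a3, already described above. The others were Slc37a2, a sugar phosphate carrier of macrophages (0.37 in WT, limma adjusted p 0.0185), and the serotonin carrier Slc6a4 (0.28, 0.0161). Slc6a4 lay below the limit for members. The insulin-responsive Slc2a4 and the fatty acid carrier Slc27a1 of muscle and fat did not pass (0.22 and 0.08 in WT). The T cell and fibroblast markers that moved with treatment are given above, and their part was not tested.

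Of 13 pumps and partner proteins, 1 fell in WT VE822, and 1 rose and 2 fell in SETD2 KD VE822. Of all genes 17.5% fell in WT, and 10.6% rose and 11.6% fell in SETD2 KD. Bsg (basigin), which carries the lactate carriers to the membrane, fell by 0.33 in WT (limma adjusted p 0.0452), and Mpc1, of the mitochondrial pyruvate carrier, fell by 0.42 in SETD2 KD (0.00787).

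**Figure D3:**
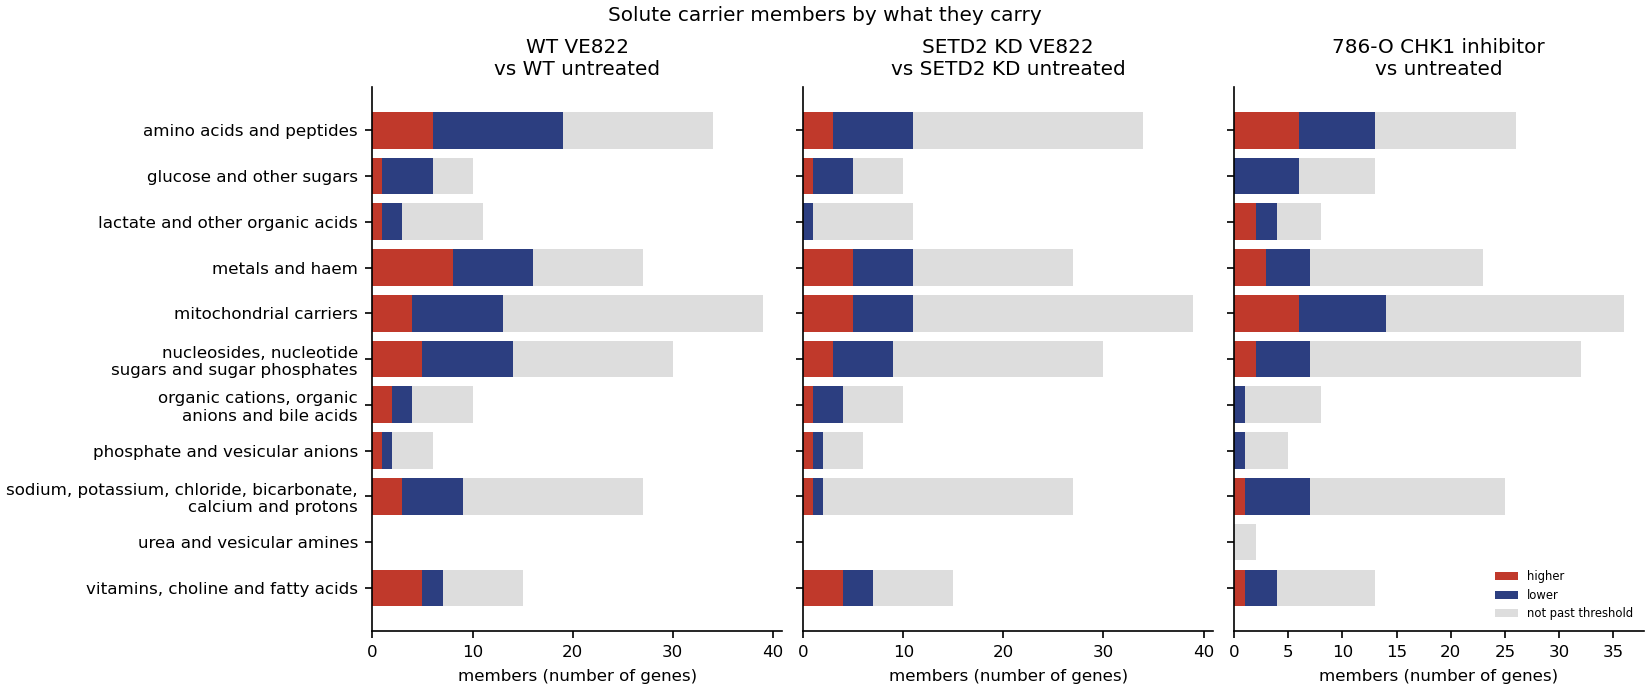
Number of solute carrier members (horizontal axes) that were higher, lower or not past an adjusted p of 0.05, by what they carry, in WT VE822 against WT untreated, SETD2 KD VE822 against SETD2 KD untreated (209 mouse members) and 786-O with the CHK1 inhibitor against untreated (191 human members). Among amino acid carriers 6 were higher and 13 lower in WT VE822, and among vitamin, choline and fatty acid carriers 5 were higher and 2 lower there.

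Libraries labelled SETD2 KD were set against those labelled WT to ask whether the genotype label went with a difference in the members. Without treatment limma called 0 of 209 members, against 0% of all genes. An unadjusted p under 0.05 was reached by 10 members. Among the smallest p were those of Slc16a14 (-0.24 ± 0.10) and the Golgi carrier Slc35a4 (0.13 ± 0.04), each with an adjusted p of 1.00. Slc2a1 differed by -0.03 and Slc7a11 by 0.09 (1.00 each).

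Under VE822, limma called 0 of 209 members between SETD2 KD and WT, against 0.0126% of all genes (2 genes, 0.00628% higher and 0.00628% lower) and 0.0153% of those with a mean of at least 5 (0.00765% in each direction), and 29 members had an unadjusted p under 0.05. Nearest were the copper importer Slc31a1, with 11.54, 11.46, 11.50, 11.61 and 11.44 in SETD2 KD VE822 against 11.29 to 11.41 in WT VE822 (median 11.32), by 0.17 ± 0.04 (adjusted p 0.0970), Slc29a3 by 0.26 ± 0.07 (0.117) and Slc35f3 by 0.54 ± 0.13 (0.119). The Slc31a1 ranges did not overlap. Without WT VE822 replicate 3, limma called 2 members, Slc31a1 (0.18, 0.0411) and the acetyl-CoA carrier Slc33a1 (0.26, 0.0421), and without SETD2 KD VE822 replicate 1 it called Slc29a3 (0.32, 0.0395). The interaction of genotype label and treatment was called in 0 of 209 members and 0% of all genes, with 23 members at an unadjusted p under 0.05. Nearest were Slc33a1 (0.32 ± 0.08, 0.424), Slc43a2 (0.36 ± 0.12, 0.438) and the vitamin carrier Slc5a6 (-0.29 ± 0.09, 0.443). Slc31a1 is overlapped on the opposite strand by Cdc26 and Slc5a6 by Atraid, so their reads may be mixed. No member in either label was shown to respond to VE822 differently from the other label, and this does not show that the responses were equal.

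In 786-O cells the comparison asks what the CHK1 inhibitor changed in a cell line without host cells. Of 191 members 64 passed (limma, adjusted p under 0.05), 21 higher and 43 lower, or 33.5%, against 13.2% of all 29353 genes tested (7.05% higher, 6.16% lower) and 27.1% of the 12731 with a mean of at least 5 (13.5% higher, 13.6% lower). The median log2 difference was -0.17 over members and 0.08 over all genes. Of the 64, 29 (45.3%) reached 1 on the log2 scale, as did 44.1% of all genes called and 39.4% of those called with a mean of at least 5. With 2 libraries a group the calls are fragile. Without CHK1 inhibitor replicate 1 limma called 9 members and without replicate 2 it called 15. Without untreated replicate 1 or untreated replicate 2 it called 0, with 69 and 72 at an unadjusted p under 0.05.

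SLC3A2 had the largest rise among the members that passed. It held 18602 and 18002 counts with the inhibitor and 5571 and 5512 without it, a difference of 1.94 ± 0.05 (log2 on the deposited scale, SE, limma adjusted p 0.0232). Its light chain SLC7A5 held 18256 and 19683 counts with the inhibitor, against 14105 and 15575 without it (0.58 ± 0.09, 0.0390). That call was lost in 6 alternative settings, quantile normalisation among them. With no mean-variance trend limma called 0 of 191 members, so the calls of all other members named for 786-O were lost there too. SLC7A6 did not pass (0.40 ± 0.17, 0.228). The other light chains went down: SLC7A11 held 768 and 773 counts with the inhibitor and 2115 and 2265 without it (-1.27 ± 0.07, 0.0232), and SLC7A7 held 144 and 136, against 460 and 457 (-1.43 ± 0.09, 0.0232). In each of these that passed, both treated libraries lay on the same side of both untreated ones.

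**Figure D4:**
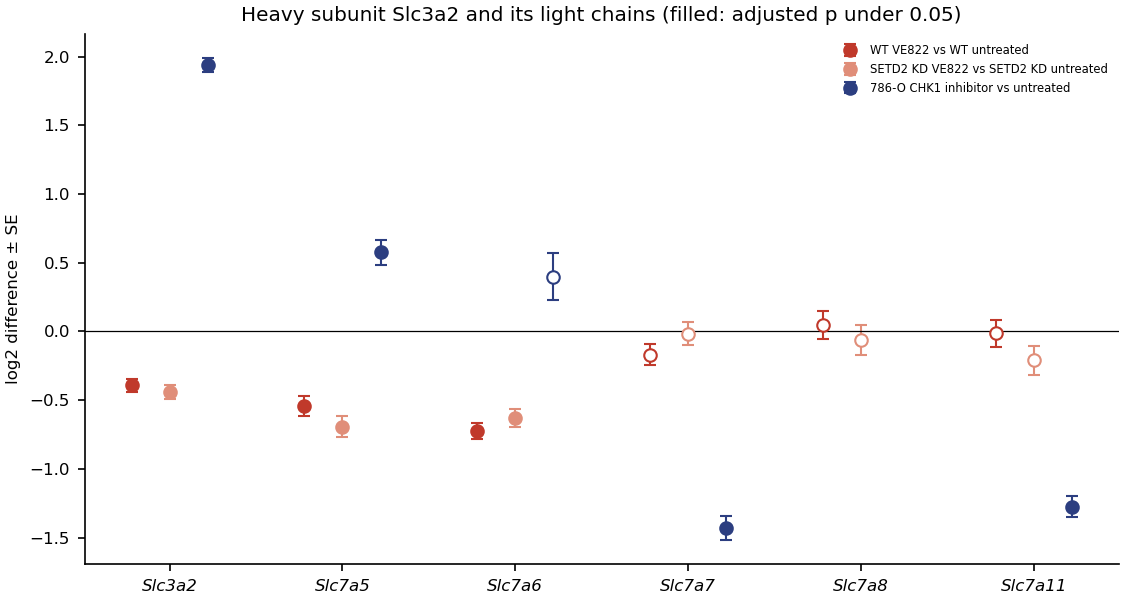
Log2 difference ± SE (vertical axis) of the heavy subunit Slc3a2 and its light chains in WT VE822 against WT untreated, SETD2 KD VE822 against SETD2 KD untreated, and 786-O cells with the CHK1 inhibitor against untreated; filled points passed an adjusted p of 0.05. Slc3a2 and Slc7a5 lie below 0 in the tumours (-0.39 and -0.54 in WT) and above 0 in 786-O (1.94 and 0.58), and SLC7A8 was below the level limit in the human table.

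Of 12 genes of the amino acid stress response 6 rose and 3 fell in 786-O. PPP1R15A, a phosphatase subunit, rose by 4.61 and DDIT3 by 2.33 (limma adjusted p 0.0232 each), and ATF4 itself by 0.76 (0.0232), while the asparagine synthetase gene ASNS fell by 0.73 (0.0260) and PSAT1 by 0.78 (0.0310). Of 14 genes of cystine use, glutathione and antioxidant defence 4 fell and 0 rose, among them the glutathione reductase gene GSR (-1.03, 0.0241). Of 13 pumps and partner proteins 1 rose and 2 fell, and of 14 glycolytic genes 1 fell, HK1, by 0.90 (0.0232). Of all genes tested in 786-O, 7.05% rose and 6.16% fell.

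Among the other amino acid carriers (26 measured, 6 higher and 7 lower in all), the glutamate carrier SLC1A3 held 105 and 144 counts with the inhibitor and 37 and 47 without it (1.56 ± 0.23, limma adjusted p 0.0371). The lysosomal proton-coupled carrier SLC36A1 held 1188 and 1324, against 602 and 543 (1.34 ± 0.12, 0.0238). The taurine carrier SLC6A6 held 2413 and 3138, against 8197 and 8675 (-1.39 ± 0.17, 0.0285). Treated and untreated libraries were apart in all 3. SLC43A3, a nucleobase carrier of the same family as Slc43a2, rose by 1.01 (0.0297), and the glutamate carrier SLC1A1 fell by 1.10 (0.0263).

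All 6 members of the sugar class that passed, of 13, were lower. The class again goes by family number and holds SLC5A6. SLC2A12 held 9 and 6 counts with the inhibitor, against 60 and 145 without it (-2.53 ± 0.45, limma adjusted p 0.0495), and SLC2A10 held 35 and 49, against 162 and 201 (-1.69 ± 0.22, 0.0316). SLC2A1 held 8381 and 8201 counts, against 12108 and 12957 (-0.37 ± 0.06, 0.0406). In all 3 no treated library reached an untreated one, but the SLC2A12 counts are few and their untreated libraries far apart. SLC2A3, the member with the largest rise in the tumours, held 90 and 159 counts with the inhibitor and 136 and 240 without it (-0.35 ± 0.42, 0.575), with overlapping groups.

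Of 8 carriers of lactate and other acids 2 were higher and 2 lower. SLC16A13 held 60 and 63 counts with the inhibitor, against 402 and 294 without it (-2.10 ± 0.20, limma adjusted p 0.0246). The lactate carriers moved apart: SLC16A3 held 5496 and 5414, against 10174 and 8676 (-0.56 ± 0.10, 0.0497), and SLC16A1 held 6114 and 5609, against 4850 and 4087 (0.62 ± 0.11, 0.0498). Both lie close to the threshold. The dicarboxylate carrier SLC13A3 rose by 1.07 (0.0495).

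Of 36 mitochondrial carriers 6 were higher and 8 lower. SLC25A25, an ATP and phosphate exchanger activated by calcium, held 667 and 808 counts with the inhibitor, against 200 and 231 without it (1.94 ± 0.16, limma adjusted p 0.0232). SLC25A38, a glycine carrier of haem synthesis, held 1784 and 1799, against 908 and 912 (1.19 ± 0.07, 0.0232). SLC25A35 held 38 and 43, against 147 and 148 (-1.45 ± 0.13, 0.0246). The thiamine carrier SLC19A2 of the plasma membrane rose by 1.25 (0.0304), the only riser among 13 vitamin, choline and fatty acid carriers, 3 of which fell.

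Of 25 carriers of inorganic ions 1 was higher and 6 were lower. The sulfate carrier SLC26A1 held 113 and 103 counts with the inhibitor, against 412 and 471 without it (-1.72 ± 0.12, limma adjusted p 0.0232), and SLC26A2, also a sulfate carrier, held 2202 and 2498, against 5874 and 5854 (-1.10 ± 0.10, 0.0244). Both groups of libraries were well apart. The potassium-chloride carrier SLC12A4 was the riser (0.79, 0.0260). Among 5 phosphate and vesicular anion carriers 1 fell, SLC17A3, with 45 and 27 counts, against 248 and 169 (-2.07 ± 0.30, 0.0368).

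Of 23 metal and haem carriers 3 were higher and 4 lower. The magnesium carrier SLC41A1 held 2800 and 2728 counts with the inhibitor, against 1798 and 1788 without it (0.84 ± 0.06, limma adjusted p 0.0232). SLC48A1 held 216 and 176, against 500 and 564 (-1.18 ± 0.13, 0.0269), and the zinc and manganese importer SLC39A8 fell by 1.06 (0.0462). Of 32 carriers of nucleosides, nucleotide sugars and sugar phosphates 2 were higher and 5 lower, the monoamine and nucleoside carrier SLC29A4 with 150 and 127 counts, against 457 and 523 (-1.54 ± 0.13, 0.0234). Neither of 2 urea and vesicular amine carriers passed. Of 8 organic cation, anion and bile acid carriers 1 fell, SLC22A18 (-0.71, 0.0316).

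**Figure D5:**
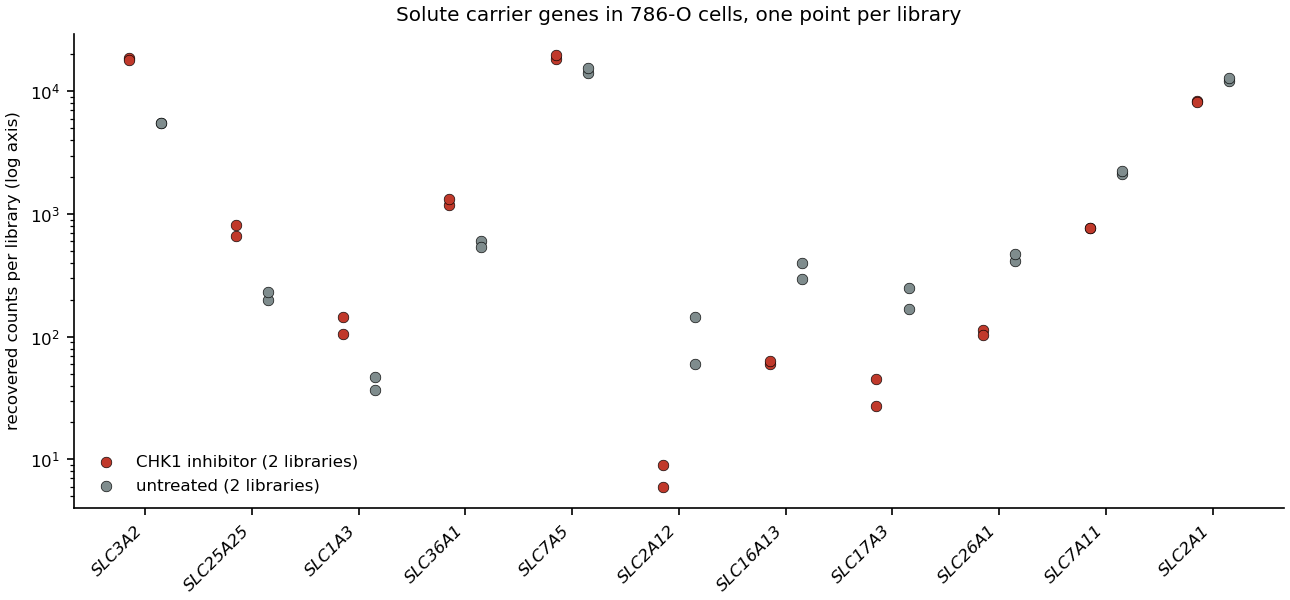
Recovered counts per library (vertical log axis) of 11 solute carrier genes in 786-O cells with the CHK1 inhibitor and untreated, 2 libraries each. SLC3A2 reaches 18602 counts with the inhibitor and SLC2A12 falls to 6, and the groups do not overlap for any gene shown.

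Mouse and human members share 168 symbols. Of these, 75 were called in WT VE822, 54 in 786-O and 18 in both (24% and 33.3%), 12 of them in the same direction. In SETD2 KD VE822 55 were called, with 13 in both (23.6% and 24.1%), 7 in the same direction. Over the 9233 symbols with a mean of at least 5 in both tables, 1036 were called in WT VE822 and 786-O (29.9% and 38.7%), 62.1% of them in the same direction, and 606 in SETD2 KD VE822 and 786-O (28.9% and 22.6%), 54.8% in the same direction. The members' overlap was not shown to differ from these shares. The haem carrier Slc48a1 (-0.49 in WT VE822, -1.18 in 786-O), Slc25a30 (-0.57 and -0.52), the taurine carrier Slc6a6 (-0.31 and -1.39) and Slc39a14 (0.56 and 0.81) changed alike. Slc3a2 (-0.39 and 1.94), Slc7a5 (-0.54 and 0.58) and Slc41a1 (-0.27 and 0.84) had calls of opposite direction, in WT and, with -0.44, -0.69 and -0.36, in SETD2 KD. The drug, species, time and culture all differ between these comparisons and cannot be told apart.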

How the data were processed

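RNA-seq was used on 24 mouse tumour libraries and 4 human cell line libraries. The authors deposited both tables as log2 values, the mouse one regularised (rlog) and the human one variance-stabilised, with FastQC, TopHat, HTSeq and DESeq2 and the builds GRCm38 and hg38 named in the submitters' processing notes, without versions. Strandedness, and how overlapping genes were counted, were not given in the sources used here. Mouse identifiers were named from GENCODE for 97.97% of 46078 rows. Whole counts were recovered from the steps of the human values; below 1000 counts, 100% fell within 0.1 of a whole number.

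Groups follow the labels. Differences were fitted with limma 3.58.1 in R 4.3.3, with a mean-variance trend: in the mouse over 4 groups and the 15916 genes with a mean rlog of at least 3, in the human over 2 groups and the 29353 genes that varied. p-values were adjusted by Benjamini-Hochberg over all genes tested, at a threshold of 0.05. The script was tested on simulated data. The text names Slc2a1, Slc7a11, the exchanger partners, the 10 members called with the largest differences in each direction, up to 2 per substrate class, and the genes of fixed lists. Some genes this rule names are not reported here. The members, classes and lists were chosen with earlier results of these data known. Alternatives were other filters, scalings, library weights, spread estimates and leaving out each library; those leaving out muscle-rich or adipocyte-rich libraries were added after seeing the data. For 786-O the number in the labels was read as marking a shared experiment. The main fit did not pair libraries by it, so the 786-O values in the results are unpaired. Same-numbered libraries deviated together (correlation 0.158 over 29353 genes, 0.511 over the 12731 with a mean of at least 5).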

Additional observations from a re-analysis of the deposited data

Results flagged for a closer look

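In 15 members and 4 mouse groups, 60 gene groups were searched for a library far from the rest of its group (Dixon's test at 95%), which chance alone passes in about 1 in 20. It was passed in 7, and 4 of these were SETD2 KD VE822 replicate 4: Slc2a3 at 8.70, Slc2a1 at 11.59, Slc4a1 at 6.79 and Slc6a13 at 5.39, each the lowest of its group. The others were Slc2a1 at 12.11 in WT VE822 replicate 5, Slc35a1 at 8.65 in WT VE822 replicate 2 and Slc25a30 at 9.99 in WT untreated replicate 1, also each the lowest of its group.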

How the results depend on the processing

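Of 2720 pairs of a result and an alternative setting, 2486 kept direction and side of the threshold, 202 lost the call, 2 gained one, 29 values moved and 1 turned direction. That one was Slc7a8 in WT VE822, at -0.24 without the muscle-rich libraries (limma adjusted p 0.0275) against 0.05 with all libraries. Leaving out each mouse library in turn gave 81 to 101 called members in WT VE822, 55 to 85 in SETD2 KD VE822 and 0 to 2 between SETD2 KD and WT under VE822. Library weights gave 99 in SETD2 KD VE822. In 786-O, testing only genes with a mean of at least 5 gave 97 (fewer genes tested), no mean-variance trend 0, with SLC3A2 at an adjusted p of 0.0564, and leaving out each library 0 to 15 (fewer samples). Otherwise the cause was not tested.

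With the experiment as a replicate block, 92 human members were called (34 higher, 58 lower), against 64 without the block. The deposited mouse values keep no depth, so low members cannot be given a counting error.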
